A study of Mus musculus with 16 samples.

Results

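The interaction of diet and NCoR1 genotype asks whether a diet that blocks thyroid hormone synthesis changes histone H3 lysine 27 acetylation (H3K27ac) by the same factor in livers with and without NCoR1. It was computed on the log2 scale as the diet effect in NCoR1 knockout (KO) minus the diet effect in wild type (WT), so a positive value means that the diet raised the mark more, or lowered it less, in KO. All 12 H3K27ac libraries of the 16 libraries in the series entered it, 3 in each of 4 groups, and the 4 input libraries are not analysed here. Of 52645 regions, 52606 passed a filter on low counts and were tested, and each region was then sorted by the pattern of its 4 group means.

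All mice had the C57BL/6J strain background and were housed under the same light and temperature regime. From 6 weeks of age for 3 weeks, WT and KO mice ate either chow or PTU/LID, a low-iodine diet containing 0.15% propylthiouracil, and livers were taken on day 21. Libraries are called by their titles, such as Chow_WT_27ac_96 for WT on chow, Ptulid_WT_27ac_135 for WT on PTU/LID, Chow_NCoRKO_27ac_122 for KO on chow and Ptulid_NCoRKO_27ac_211 for KO on PTU/LID. The genotype is labelled only as NCoR1 KO: the part of the gene that was removed, and any Cre line or promoter that limited the deletion to a cell type, are not stated in the labels. Sex and serum thyroid hormone were not used. Whether the numbers stand for separate animals is not stated, so p-values reflect library-to-library spread, which may in part be technical.

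NCoR1 is a corepressor that joins nuclear receptors to histone deacetylase 3. The thyroid hormone receptor binds its target genes with or without hormone, and the unliganded receptor recruits NCoR1, so removal of acetyl groups from nearby histones is tied to loss of hormone. H3K27ac marks active promoters and enhancers. Propylthiouracil inhibits thyroid peroxidase, the enzyme of the thyroid gland that makes the hormone, and also the type 1 deiodinase, which makes active hormone in liver.

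Counts per library over all regions ranged from 2965505 to 7416187. Levels are given as CPM, counts scaled to a common library total, after adjustment with TMM factors. Regions of the mitochondrial chromosome (chrM) took a share of the counts that ranged from 0.717% to 17.2%. It was above 2% in all 3 KO chow libraries (4.21%, 17.2% and 3.0%), in Chow_WT_27ac_96 and Chow_WT_27ac_99, in Ptulid_WT_27ac_135 and in Ptulid_NCoRKO_27ac_211, so KO on chow has no library of low chrM share and its share cannot be told apart from its group. Replicates differed by more than counting noise in every pair of libraries within a group. Hepatocyte marker genes summed to 7500 to 9020 CPM per library in WT on chow and 7570 to 10100 in WT on PTU/LID. The sums were 8620 to 9230 in KO on chow and 9400 to 10700 in KO on PTU/LID. KO on PTU/LID thus lay above both chow groups and overlapped WT on PTU/LID. In whole liver, fewer cells of a type and less mark per cell cannot be told apart. H3K27ac over the regions of Ncor1 itself overlapped between all 4 groups: its level was 62.3, 58.1 and 44.5 CPM in WT on chow, 63.5, 50.8 and 51.4 in WT on PTU/LID, 52.0, 64.2 and 45.5 in KO on chow and 59.4, 55.0 and 47.9 in KO on PTU/LID, which shows acetylation at the gene and does not check the deletion.

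The start windows of several genes with an interaction are shown. Those of Cyp3a and Mup genes show how alike the copies are, and those of Avpr1a and Tat show the bases inside a called region. Each runs from 250 bases before to 50 bases after the annotated start and comes from RefSeq GRCm38.p6, the assembly behind the mm10 coordinates that the submitters' processing notes name. The cytochrome P450 genes Cyp3a16 (chr5:145469674-145469973), Cyp3a41a (chr5:145720087-145720386), Cyp3a41b (chr5:145584681-145584980) and Cyp3a44 (chr5:145805825-145806124), all on the minus strand, hold 4 of the 12 largest negative interactions when 1 region is taken per gene. Capitals mark bases of the other windows that are not identical to Cyp3a16 in a global alignment.
Cyp3a16: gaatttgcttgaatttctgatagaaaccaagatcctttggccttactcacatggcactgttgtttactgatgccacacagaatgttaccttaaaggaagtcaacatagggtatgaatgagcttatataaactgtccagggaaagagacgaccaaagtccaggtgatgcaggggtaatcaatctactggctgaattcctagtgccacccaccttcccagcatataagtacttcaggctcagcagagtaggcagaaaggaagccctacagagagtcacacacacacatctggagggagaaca
Cyp3a41a: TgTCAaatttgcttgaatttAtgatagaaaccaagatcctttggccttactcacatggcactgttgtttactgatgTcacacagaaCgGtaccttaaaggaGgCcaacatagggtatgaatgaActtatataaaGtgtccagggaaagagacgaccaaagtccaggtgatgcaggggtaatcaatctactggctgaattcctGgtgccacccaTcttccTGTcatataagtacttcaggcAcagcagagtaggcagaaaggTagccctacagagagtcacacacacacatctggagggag
Cyp3a41b: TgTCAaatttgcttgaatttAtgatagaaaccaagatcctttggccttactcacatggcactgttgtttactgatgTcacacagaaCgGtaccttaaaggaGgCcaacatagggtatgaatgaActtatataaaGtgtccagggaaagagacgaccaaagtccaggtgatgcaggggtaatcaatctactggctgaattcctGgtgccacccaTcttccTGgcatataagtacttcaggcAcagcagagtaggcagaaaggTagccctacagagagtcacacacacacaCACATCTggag
Cyp3a44: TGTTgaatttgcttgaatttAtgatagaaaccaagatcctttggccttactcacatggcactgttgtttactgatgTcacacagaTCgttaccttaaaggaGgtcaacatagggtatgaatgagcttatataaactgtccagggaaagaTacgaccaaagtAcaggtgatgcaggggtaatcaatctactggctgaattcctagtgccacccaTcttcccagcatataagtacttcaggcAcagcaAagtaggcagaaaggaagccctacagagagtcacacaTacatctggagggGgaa
Identity between pairs of these windows ranged from 90.5% to 97.3%. The sequences of the called regions themselves were not compared, and which copy carried the reads is uncertain. A called region covered part of the Cyp3a41a window. The nearest called region lay 34 bases from the window of Cyp3a16, 294 from that of Cyp3a41b and 2429 from that of Cyp3a44.

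The major urinary protein genes Mup9 (chr4:60421903-60422202, minus strand) and Mup17 (chr4:61595783-61596082, minus strand) belong to a second family of near-identical copies. Capitals in Mup17 mark bases not identical to Mup9.
Mup9: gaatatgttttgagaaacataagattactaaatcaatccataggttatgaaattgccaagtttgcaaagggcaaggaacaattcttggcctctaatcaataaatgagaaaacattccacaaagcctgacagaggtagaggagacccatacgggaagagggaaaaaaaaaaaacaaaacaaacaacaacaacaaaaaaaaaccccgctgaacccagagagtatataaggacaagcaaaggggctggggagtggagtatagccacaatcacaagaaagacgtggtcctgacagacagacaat
Mup17: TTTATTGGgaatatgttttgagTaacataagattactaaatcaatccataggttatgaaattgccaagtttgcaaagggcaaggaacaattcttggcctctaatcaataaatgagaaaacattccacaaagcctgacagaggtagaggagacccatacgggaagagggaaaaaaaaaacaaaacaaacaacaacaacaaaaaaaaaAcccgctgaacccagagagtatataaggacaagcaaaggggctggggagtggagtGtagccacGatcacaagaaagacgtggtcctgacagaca
These windows were 93.5% identical. A called region covered part of the Mup17 window, and the nearest lay 2059 bases from that of Mup9. For Avpr1a (chr10:122448249-122448548, plus strand) and Tat (chr8:109990186-109990485, plus strand), capitals mark the bases that lie inside a region called for the interaction, which in Avpr1a is the end of the window that holds the gene start and in Tat the far upstream end.
Avpr1a: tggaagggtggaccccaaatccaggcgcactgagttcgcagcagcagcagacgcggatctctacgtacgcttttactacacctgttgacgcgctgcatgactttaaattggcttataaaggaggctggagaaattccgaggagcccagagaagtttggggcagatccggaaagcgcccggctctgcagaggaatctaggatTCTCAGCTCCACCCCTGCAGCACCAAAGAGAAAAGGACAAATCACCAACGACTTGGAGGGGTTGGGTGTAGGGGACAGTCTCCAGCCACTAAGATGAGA
Tat: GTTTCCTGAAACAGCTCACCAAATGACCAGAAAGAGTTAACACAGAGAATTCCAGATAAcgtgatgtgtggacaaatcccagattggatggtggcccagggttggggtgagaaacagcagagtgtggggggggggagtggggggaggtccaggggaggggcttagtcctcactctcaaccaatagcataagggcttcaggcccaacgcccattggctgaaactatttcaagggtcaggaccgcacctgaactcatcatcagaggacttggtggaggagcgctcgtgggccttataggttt
The half-site AGGTCA of nuclear receptors, searched on both strands, was found once among these windows, in that of Cyp3a44. It was in 16.2% of all 32544 windows of the same length.

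At 121 of 52606 regions (0.23%) the diet effect differed between the genotypes by edgeR's quasi-likelihood test with Benjamini-Hochberg adjustment, at an adjusted p below 0.05. Of these, 83 (0.158% of regions tested) had a positive interaction and 38 (0.0722%) a negative one. Positive regions belonged among others to Dync2li1, Ppp1r3g, Lyrm4, Kcnk3 and the stretch upstream of Pck1, and negative regions mostly to Mup and Cyp3a genes. The median positive interaction was 1.57, with a median diet effect of -0.35 in WT and 1.30 in KO. The median negative interaction was -1.95, with medians of -0.23 in WT and -2.46 in KO. At 62 of the 83 positive regions the diet effects in WT and KO had opposite signs, against 37.2% of all regions tested. At the negative regions this was so for 14 of 38, close to the share of all regions. Regions were chosen by the difference between these effects, so these shares are a description.

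Most called regions responded to the diet in KO. PTU/LID changed 1949 regions in WT (3.7%), of which 952 rose (1.81%) and 997 fell (1.9%). In KO it changed 3269 (6.21%), of which 1724 rose (3.28%) and 1545 fell (2.94%). These 2 comparisons share no library with each other but share all of theirs with the interaction. Between genotypes 1278 regions differed on chow (2.43%) and 2032 on PTU/LID (3.86%). Of the 83 positive regions, 65 were higher in KO on PTU/LID (3.17% of all regions were) and 21 lower in KO on chow (0.823%). The genotype comparisons also share their libraries with the interaction, so these shares are a description. Among the 121 regions, 89 passed for the diet in KO alone, where 62 rose and 27 fell. Another 13 passed in WT alone, 11 of which fell. In 14 regions both genotypes passed in the same direction with unequal size, and in 4 they passed in opposite directions, falling in WT and rising in KO. The region of Arrdc3, singled out because it was alone in this, passed in neither. Over all regions tested, 2566 passed in KO alone, 1246 in WT alone and 699 in both in the same direction. Only the 4 called regions passed in opposite directions. KO alone was thus a larger class than WT alone over all regions too. The regions were called from the same libraries as these diet effects, so the class counts are a description.

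**Figure D1:**
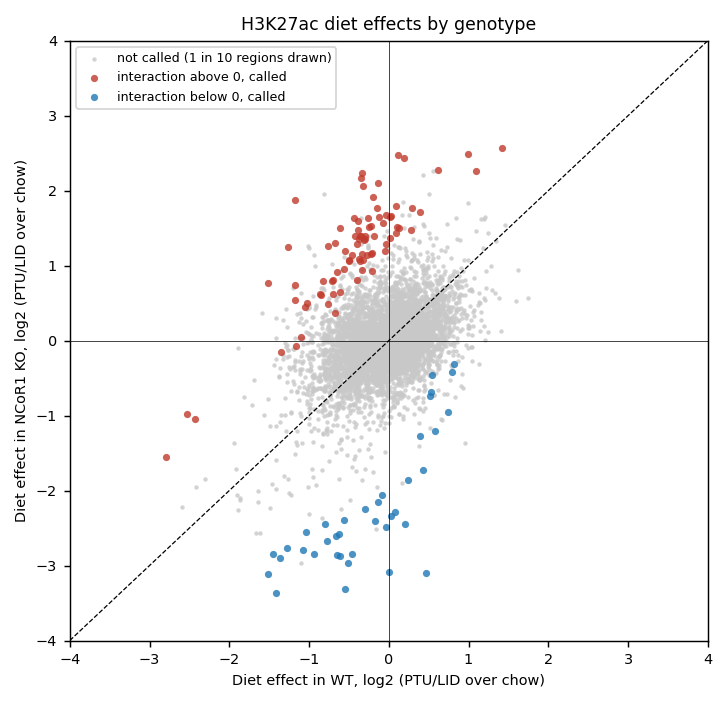
Diet effect on H3K27ac in KO (vertical axis, log2 of PTU/LID over chow) against that in WT (horizontal axis, same unit). Coloured points are regions called for the interaction, grey points 1 in 10 of the others, and the dashed line marks equal effects; positive regions lie mostly at the upper left, negative regions mostly at strong losses in KO.

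The interaction was the least precise of the comparisons, with a median standard error of 0.391 on the log2 scale against 0.285 for the diet effect in WT and 0.267 in KO. Regions with an unadjusted p under 0.05 numbered 4859 (9.24% of those tested). The number of calls depended on single libraries: it was 59 without Chow_WT_27ac_99, 33 without Chow_WT_27ac_106, 208 without Ptulid_WT_27ac_135, 74 without Ptulid_WT_27ac_280, 57 without Chow_NCoRKO_27ac_122, 54 without Chow_NCoRKO_27ac_190, 55 without Ptulid_NCoRKO_27ac_232 and 37 without Ptulid_NCoRKO_27ac_239. Without Chow_NCoRKO_27ac_146, which has the highest chrM share, 101 regions were called, 78 of them among the 121. With the chrM share as a covariate 248 regions were called, 113 of them positive, and 89 of the 248 were among the 121. Of the 24 regions selected by size, 5 missed the threshold with that covariate. The libraries of higher chrM share, above 2%, hold only Ptulid_WT_27ac_135 for WT on PTU/LID and only Ptulid_NCoRKO_27ac_211 for KO on PTU/LID. With 1 library in each of these groups, that setting cannot tell chrM share from the single libraries, and only effect sizes are given. The last region to pass was that of Castor2 (interaction 1.71 ± 0.40, adjusted p = 0.0497) and the first not to pass was one near Mgat1 (2.27 ± 0.53, adjusted p = 0.0504).

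Sorted by the group whose mean lay farthest from the median of the other 3, 45 of the 121 regions stood out by a high level in KO on PTU/LID (37.2%, against 12.5% of all regions tested). A high level in KO on chow marked 31 (25.6% against 10.8%), a low level in KO on chow 21 (17.4% against 10.5%) and a low level in WT on PTU/LID 16 (13.2% against 12.1%). The other 4 patterns held 8 regions together: KO on PTU/LID low in 4, WT on PTU/LID high in 2, and WT on chow high or low in 1 each. The 3 libraries of the group that stood apart lay outside the range of the other 9 in 34, 29, 17 and 11 regions of the 4 common patterns. Over all regions tested this was so for 7689 (14.6%). The pattern and the interaction come from the same values, so these shares are a description. The number with KO on PTU/LID high was 18 without Chow_WT_27ac_99, 11 without Chow_WT_27ac_106, 17 without Chow_NCoRKO_27ac_122, 16 without Chow_NCoRKO_27ac_190, 25 without Ptulid_NCoRKO_27ac_232 and 12 without Ptulid_NCoRKO_27ac_239.

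**Figure D2:**
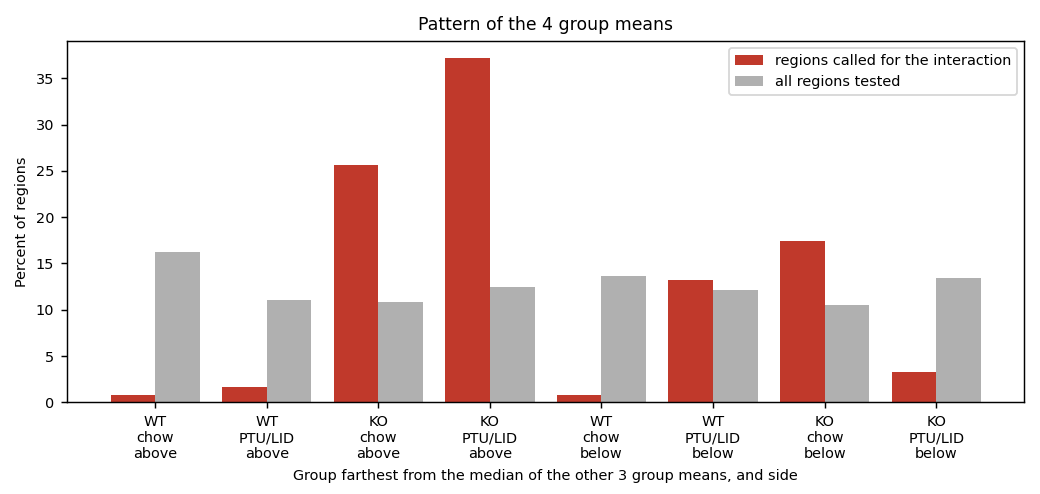
Share of regions (vertical axis, percent) in each of 8 patterns, defined by the group farthest from the median of the other 3 group means and by its side, for the 121 called regions (red) and all 52606 tested (grey). High in KO on PTU/LID is the most common pattern among called regions and WT on chow high or low the rarest, while the patterns of all regions are more even.

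A rise in KO that left KO on PTU/LID above every other group lay in Dync2li1, which encodes a light intermediate chain of the dynein-2 motor of cilia and neighbours the sterol transporter genes Abcg5 and Abcg8. Of the 6 regions assigned to the gene 4 were called, all between chr17:84649230 and position 84654513. The region at chr17:84649230-84650951, inside the gene, measured 12.0, 17.7 and 7.93 CPM in WT on chow, 14.0, 9.90 and 9.85 in WT on PTU/LID, 13.2, 9.12 and 11.6 in KO on chow and 57.3, 39.2 and 50.1 in KO on PTU/LID. Its 3 KO PTU/LID libraries lay above the other 9. The interaction was 2.23 ± 0.34 (edgeR, adjusted p = 0.00117): the mark rose by 2.1 ± 0.23 in KO on the log2 scale, and the diet effect in WT was -0.14 ± 0.26. The region with the largest interaction of the 4 (chr17:84653851-84654513) gave 2.58 ± 0.56 (adjusted p = 0.0416). Abcg5, which with Abcg8 pumps sterols into bile, had a gene-level interaction of 0.65 ± 0.20 that did not pass (adjusted p = 0.196). The call at chr17:84653851-84654513 was lost without any 1 library other than Chow_WT_27ac_106, Ptulid_WT_27ac_135 or Chow_NCoRKO_27ac_122 (adjusted p from 0.0578 to 0.178).

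A second cluster spanned Ppp1r3g, a subunit that targets protein phosphatase 1 to glycogen, and its neighbour Lyrm4, which serves iron-sulfur cluster assembly. Within 60 kb of the Ppp1r3g start 6 of 11 regions were called and all 11 had a positive value, which describes a locus picked for its calls. The called ones lay between positions 35962531 and 36016702 of chromosome 13. In the Ppp1r3g region with the largest value (chr13:35963934-35965105) the level was 25, 20.7 and 27.1 CPM in WT on chow, 9.26, 23.2 and 20.3 in WT on PTU/LID, 14.7, 23.8 and 17.0 in KO on chow and 42.7, 54.7 and 72.6 in KO on PTU/LID. The KO PTU/LID libraries lay above all others, and the other 3 groups overlapped. The interaction was 2.07 ± 0.35 (edgeR, adjusted p = 0.00524), with a rise of 1.62 ± 0.24 in KO and a diet effect of -0.44 ± 0.26 in WT that did not pass. In Lyrm4 (chr13:35994397-35996196), the corresponding values were 1.98 ± 0.33 for the interaction (adjusted p = 0.00344), 1.30 in KO and -0.68 in WT. Both calls held with any 1 library left out. In the libraries of higher chrM share alone the interaction at the Lyrm4 region was 0.99.

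Single regions or pairs with a high level in KO on PTU/LID lay at Fabp5, Scd1, Kcnk3 and Smg1. The region 6.3 kb from Fabp5, a fatty acid binding protein (chr3:10022596-10023229), had 4.75, 7.45 and 2.31 CPM in WT on chow, 3.58, 3.44 and 3.69 in WT on PTU/LID, 2.72, 7.26 and 4.58 in KO on chow and 24.6, 15.9 and 25.4 in KO on PTU/LID. The region 8.04 kb from Scd1, the stearoyl-CoA desaturase that makes monounsaturated fatty acids (chr19:44386241-44386570), was low throughout, with 2.22, 1.93 and 2.31 CPM in WT on chow, 2.39, 0.646 and 0.205 in WT on PTU/LID, 0.907, 2.60 and 1.68 in KO on chow and 6.91, 6.21 and 6.27 in KO on PTU/LID. In both, KO on PTU/LID did not overlap any other group. Interactions were 2.52 ± 0.50 for the Fabp5 region (edgeR, adjusted p = 0.0163) and 3.05 ± 0.68 for the Scd1 region (adjusted p = 0.0355), the largest positive value of all called regions and one that rests on few reads. Summed over its 13 regions, Scd1 gave 0.64 ± 0.16 (adjusted p = 0.0909), which did not pass, and its diet effect was 0.77 ± 0.11 in KO (adjusted p = 5.84e-05) and 0.14 ± 0.12 in WT (adjusted p = 0.507). Kcnk3, a two-pore potassium channel gene, had 2 called regions, of which that at chr5:30613465-30614310 rose in KO by 2.47 ± 0.33 with a WT effect of 0.11 ± 0.37 and an interaction of 2.36 ± 0.50 (adjusted p = 0.0272). Summed over its 9 regions, Kcnk3 gave 1.32 ± 0.24 and passed (edgeR, adjusted p = 0.014). Near Smg1, a kinase of nonsense-mediated decay (chr7:118251393-118252121), the interaction was 1.92 ± 0.44 (adjusted p = 0.0451). The Fabp5 call was lost without Chow_WT_27ac_99, Chow_NCoRKO_27ac_122, Chow_NCoRKO_27ac_190 or Ptulid_NCoRKO_27ac_239 (adjusted p from 0.0548 to 0.139), that of Scd1 without any 1 library other than Ptulid_WT_27ac_135, Chow_NCoRKO_27ac_146 or Ptulid_NCoRKO_27ac_211 (adjusted p from 0.0631 to 0.14), that of Kcnk3 without any 1 library other than Chow_WT_27ac_96, Ptulid_WT_27ac_135, Chow_NCoRKO_27ac_122, Ptulid_NCoRKO_27ac_211 or Ptulid_NCoRKO_27ac_232 (adjusted p from 0.0643 to 0.131) and that of Smg1 without any 1 library other than Chow_WT_27ac_96, Ptulid_WT_27ac_155 or Ptulid_NCoRKO_27ac_211 (adjusted p from 0.0562 to 0.209). In the libraries of higher chrM share alone Scd1 gave 1.78, Kcnk3 1.34 and Smg1 2.23. With the chrM share as a covariate Smg1 gave 1.55 and did not pass (edgeR, adjusted p = 0.111).

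**Figure D3:**
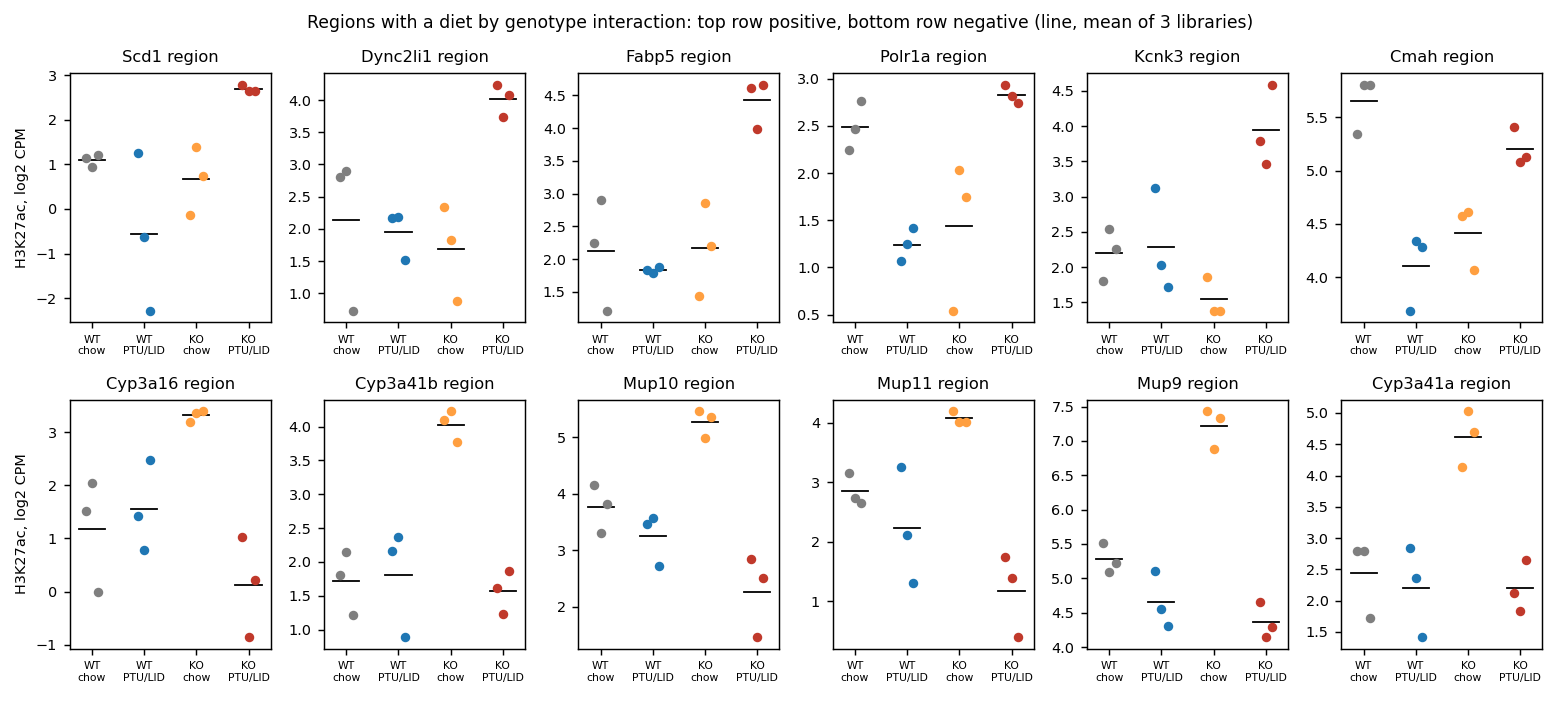
H3K27ac (vertical axes, log2 CPM) in each of the 12 libraries at the 6 regions with the largest positive (top) and the 6 with the largest negative interaction (bottom), 1 per gene; points are libraries, lines means of 3. In the top row KO on PTU/LID is high except for Cmah and Polr1a, where WT on chow is also high; in the bottom row KO on chow stands above the other groups.

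At other positive regions the mark was lower on PTU/LID in WT and not in KO. The region with the smallest p of all lay inside Cmah, which encodes the hydroxylase that makes N-glycolylneuraminic acid (chr13:24364133-24366323). It measured 40.5, 56.0 and 55.7 CPM in WT on chow, 12.8, 20.2 and 19.5 in WT on PTU/LID, 23.8, 24.4 and 16.8 in KO on chow and 42.5, 34.0 and 35 in KO on PTU/LID. In WT the chow and PTU/LID libraries did not overlap, and in KO they did not overlap in the opposite order. The mark fell in WT (-1.52 ± 0.20 on the log2 scale) and rose by 0.78 ± 0.19 in KO, an interaction of 2.30 ± 0.28 (edgeR, adjusted p = 2.04e-05) that passed under every alternative tried. Near Polr1a, the largest subunit of RNA polymerase I (chr6:72000226-72000597), the same 2 directions were called, with an interaction of 2.51 ± 0.48 (adjusted p = 0.0102). The Polr1a call was lost without Chow_WT_27ac_106 (adjusted p = 0.0783), and its value was 2.65 in the libraries of higher chrM share alone.

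Regions outside the 12 largest in each direction, which here are those of Pck1, Lepr, Cyp3a11, Sult2a7, Khdc1a, Tat, Nfix, Perp and Xbp1 and the one far from Ppargc1a, were chosen after their values were seen. Calls of these regions were not followed singly through the alternatives. Summed per gene, Khdc1a (1.20 ± 0.18), Sult2a7 (1.25 ± 0.19), Lepr (0.71 ± 0.15), Nfix (-0.77 ± 0.17) and Perp (-1.33 ± 0.28) passed for the interaction (edgeR, adjusted p from 0.00311 to 0.0487). Pck1, Cyp3a11, Tat and Xbp1 did not. Of the genes that passed, Perp alone was followed through the alternatives. Upstream of Pck1, the enzyme that commits carbon to gluconeogenesis, 6 regions were called, from inside Ctcfl through Gm40011 to 1.15 kb from the Pck1 start. Of these 6, 3 were assigned to Pck1 and the others to Ctcfl and Gm40011. They lay between positions 173110769 and 173152607 of chromosome 2. Within 60 kb of the Pck1 start 19 regions were tested, 6 were called and 18 had a positive interaction. The region 5.5 kb from the start (chr2:173146983-173148154) measured 33.9, 30.4 and 50.6 CPM in WT on chow, 11.9, 24.3 and 18.9 in WT on PTU/LID, 28.5, 29.6 and 31.2 in KO on chow and 39.9, 36.7 and 44.8 in KO on PTU/LID. The WT PTU/LID libraries lay below the other 9, and KO on PTU/LID overlapped WT on chow. The mark fell in WT (-1.05 ± 0.21), the KO effect was 0.44 ± 0.20 (adjusted p = 0.206), and the interaction was 1.5 ± 0.29 (edgeR, adjusted p = 0.0102). At the region 1.15 kb from the start (chr2:173151245-173152607) both diet effects passed in opposite directions, -0.70 ± 0.18 in WT and 0.62 ± 0.17 in KO. The Pck1 regions with interactions of 1.5 and 1.73 overlapped the start window of Gm36691. Summed over the 11 regions assigned to Pck1, the interaction was 0.94 ± 0.31 and did not pass (adjusted p = 0.317). The 3 regions assigned to Gm40011 gave 1.33 ± 0.215 and passed (edgeR, adjusted p = 0.00936). Which gene the called stretch serves was not tested.

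The loss in WT was absent or smaller in KO at a further set of liver genes. In Lepr, the leptin receptor (chr4:101741196-101743052), the level was 45.0, 52.2 and 43.0 CPM in WT on chow, 14.3, 19.6 and 20.5 in WT on PTU/LID, 48.3, 55.8 and 46.6 in KO on chow and 54.0, 34.2 and 48.7 in KO on PTU/LID. WT on PTU/LID lay below all other libraries; the diet effect was -1.35 ± 0.19 in WT, where the mark fell, and -0.15 ± 0.18 in KO, with an interaction of 1.20 ± 0.26 (edgeR, adjusted p = 0.0328). A region 32.7 kb from Cyp3a11 (chr5:145911961-145913103), the only Cyp3a region with a positive call, had the same pattern (-1.16 ± 0.17 in WT, -0.08 ± 0.15 in KO, interaction 1.08 ± 0.23, adjusted p = 0.0272). The count of positive Cyp3a regions was 0 without Chow_WT_27ac_106, Ptulid_WT_27ac_280, Chow_NCoRKO_27ac_122, Chow_NCoRKO_27ac_190, Ptulid_NCoRKO_27ac_232 or Ptulid_NCoRKO_27ac_239. Sult2a7, a sulfotransferase of steroids and bile acids, had 3 called regions. At the one with the smallest p (chr7:14517333-14521529) the level was 162, 131 and 150.1 CPM in WT on chow, 22.4, 24.1 and 17.4 in WT on PTU/LID, 250.2, 241 and 238 in KO on chow and 73.7, 95.2 and 79.5 in KO on PTU/LID. Here the mark fell in both genotypes (-2.79 ± 0.18 in WT and -1.55 ± 0.16 in KO on the log2 scale), and the interaction was 1.24 ± 0.23 (adjusted p = 0.00845). Sult2a genes are near-identical copies, so the assignment to Sult2a7 is uncertain, and 19 of the 31 regions of the family had a negative interaction (median -0.23). The 3 calls were 0 without Ptulid_WT_27ac_280 or Ptulid_NCoRKO_27ac_232, and 1 without Chow_NCoRKO_27ac_190 or Ptulid_NCoRKO_27ac_239.

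A low level in KO on chow that was not seen on PTU/LID marked a further kind of positive region. At the 3 called regions near Khdc1a the mark rose in both genotypes and more so in KO. At chr1:21325553-21326882 it measured 17.4, 30.4 and 24.6 CPM in WT on chow, 44.8, 54.0 and 45.8 in WT on PTU/LID, 8.89, 9.12 and 9.02 in KO on chow and 42.7, 57.8 and 51.0 in KO on PTU/LID, with KO on chow below all other libraries and the PTU/LID groups overlapping. The rise was 0.99 ± 0.19 in WT and 2.49 ± 0.20 in KO, with an interaction of 1.5 ± 0.28 (edgeR, adjusted p = 0.0069). A further region had no protein-coding gene within 50 kb and overlapped the start window of Gm29924 (chr5:51287685-51289349). Its nearest protein-coding start with a window was that of the coactivator gene Ppargc1a, 279 kb away. It measured 48.8, 73.7 and 86.8 CPM in WT on chow, 36.1, 80.1 and 63.2 in WT on PTU/LID, 14.7, 23.1 and 23.4 in KO on chow and 59.3, 58.9 and 58.9 in KO on PTU/LID. KO on chow again lay below the other 9, and the interaction was 1.75 ± 0.33 (adjusted p = 0.0179). At Tat, the tyrosine aminotransferase of hepatocytes, whose upstream window is printed above, the region chr8:109989169-109990244 gave 1.56 ± 0.35 (adjusted p = 0.0375). There the mark rose in KO (1.05 ± 0.24) and the WT effect was -0.50 ± 0.25 (adjusted p = 0.264). The regions of Zfp970, a zinc finger gene, and Rprd1a, whose product binds RNA polymerase II, had interactions of 2.11 ± 0.40 (adjusted p = 0.00829) and 2.03 ± 0.43 (adjusted p = 0.0262). The call of Zfp970 was lost without Chow_WT_27ac_106 or Ptulid_NCoRKO_27ac_232 (adjusted p from 0.0578 to 0.0725). That of Rprd1a was lost without Chow_WT_27ac_106, Ptulid_WT_27ac_280, Chow_NCoRKO_27ac_122, Chow_NCoRKO_27ac_146, Chow_NCoRKO_27ac_190 or Ptulid_NCoRKO_27ac_232 (adjusted p from 0.0575 to 0.109). With the chrM share as a covariate Rprd1a gave 1.87 and did not pass (edgeR, adjusted p = 0.0549). In the libraries of higher chrM share alone, Zfp970 gave 1.92 and Rprd1a 1.66.

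**Figure D4:**
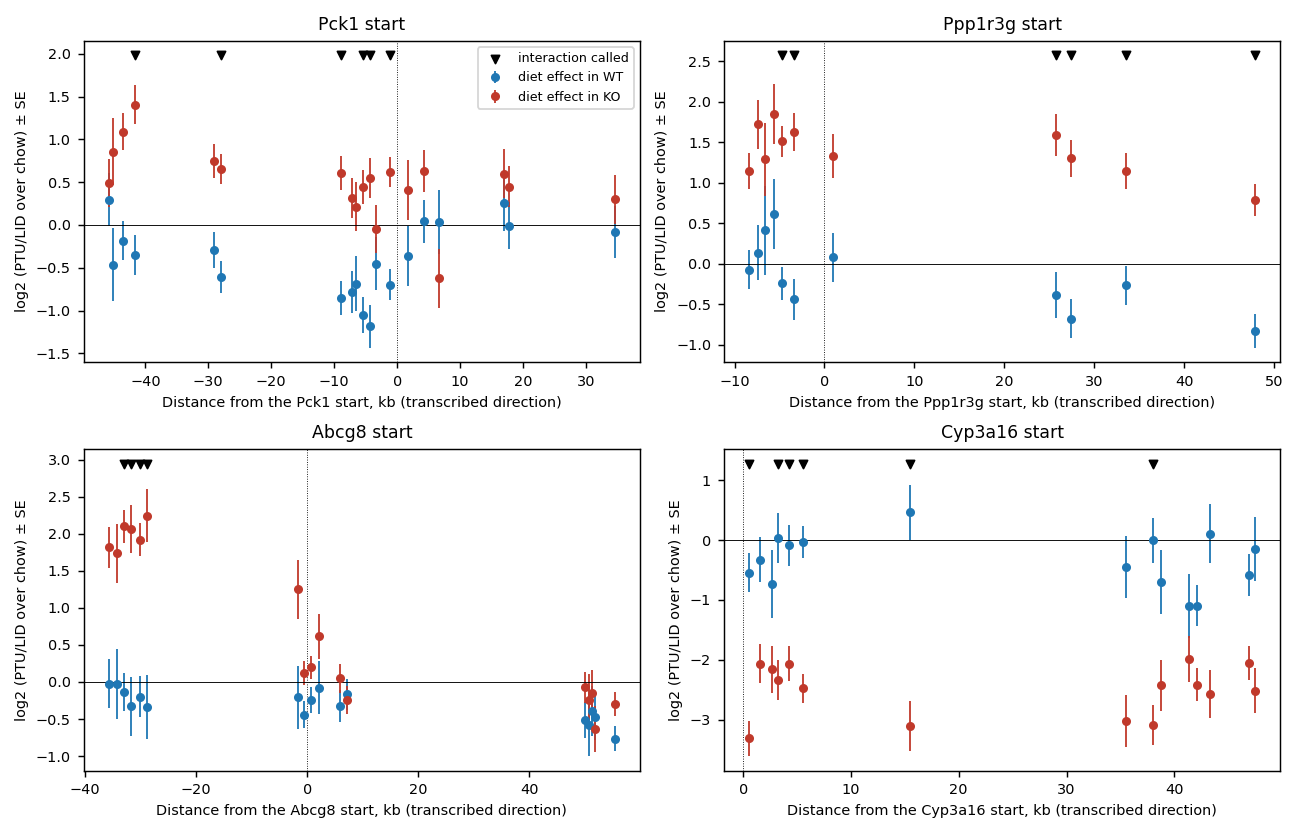
Diet effect on H3K27ac (vertical axes, log2 of PTU/LID over chow, ± SE) at every tested region within 60 kb of 4 gene starts (horizontal axes, distance in kb along the transcribed direction), in WT (blue) and KO (red); triangles mark regions called for the interaction. Effects in KO lie above those in WT at 18 of 19 regions around Pck1, 11 of 11 around Ppp1r3g and 15 of 17 around Abcg8, and below them at 15 of 15 around Cyp3a16. These starts lie at the 4 loci with the most called regions, and the counts include those regions, so they are a description. The median interaction over all regions tested was 0.01.

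Among negative regions the usual pattern was a level in KO on chow above every other group. Of 38 negative regions, 37 were higher in KO than in WT on chow, and 31 of these passed (1.61% of all regions did so in that direction). None of the 38 was higher in KO on PTU/LID at that threshold and 6 were lower (0.698% of all regions). The same libraries gave the interaction, so these shares are a description. Most belonged to Mup genes, which encode pheromone carriers made by the liver and known as targets of growth hormone, and to Cyp3a16, Cyp3a41a, Cyp3a41b and Cyp3a44, steroid and drug hydroxylases known for higher expression in female mouse liver. The median diet effect in KO was -2.01 over Mup regions and -1.14 over Cyp3a regions, against -1.20 and -0.27 in WT.

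In the Mup cluster 14 of 206 regions tested were called, all of them negative, and 180 of the 206 had a negative value (median -0.64, against 0.01 for all regions). The region 4.23 kb from Mup9 (chr4:60424262-60428373) measured 45.9, 34.0 and 37.2 CPM in WT on chow, 34.4, 23.5 and 19.7 in WT on PTU/LID, 173, 118 and 161 in KO on chow and 25.3, 17.7 and 19.5 in KO on PTU/LID. The KO chow libraries lay above the other 9 by a wide margin and the other 3 groups overlapped in part. The mark fell in KO (-2.87 ± 0.20), the effect in WT was -0.61 ± 0.20 (adjusted p = 0.0817), and the interaction was -2.27 ± 0.28 (edgeR, adjusted p = 2.04e-05). In Mup-ps12 (chr4:61441960-61447886), where the mark fell in both genotypes, the level was 117, 77 and 75.5 CPM in WT on chow, 32.3, 35.5 and 33.0 in WT on PTU/LID, 405, 327 and 453 in KO on chow and 44.5, 34.0 and 36.4 in KO on PTU/LID and the interaction -1.96 ± 0.26 (adjusted p = 4.33e-05). Regions near Mup10 (-2.45 ± 0.39, adjusted p = 0.00166), Mup11 (-2.39 ± 0.49, adjusted p = 0.0233) and Mup8 (-1.96 ± 0.42, adjusted p = 0.0272) had the same sign. The calls of Mup9, Mup10 and Mup-ps12 passed under every alternative tried. That of Mup11 was lost without any 1 library other than Chow_WT_27ac_96, Ptulid_WT_27ac_155, Ptulid_WT_27ac_280, Chow_NCoRKO_27ac_146 or Ptulid_NCoRKO_27ac_211 (adjusted p from 0.0503 to 0.121), and that of Mup8 without any 1 library other than Chow_WT_27ac_96, Ptulid_WT_27ac_155, Chow_NCoRKO_27ac_146 or Ptulid_NCoRKO_27ac_211 (adjusted p from 0.0565 to 0.0984).

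The count of negative Mup regions was 8 without Chow_WT_27ac_99, 6 without Chow_WT_27ac_106, 8 without Chow_NCoRKO_27ac_122, 8 without Chow_NCoRKO_27ac_190, 6 without Ptulid_NCoRKO_27ac_232 and 7 without Ptulid_NCoRKO_27ac_239. The median over all Mup regions was -0.88 in the libraries of higher chrM share alone. Mup genes are near-identical copies, so which member carried the reads is uncertain.

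In the Cyp3a cluster 10 of 85 regions were called negative and 1 positive, and 57 of the 85 values were negative (median -0.63). All 15 regions tested within 60 kb of the Cyp3a16 start had a negative value and 6 were called, between positions 145431204 and 145469639 of chromosome 5. This locus was picked for its calls, so the count is a description. The largest negative interaction of all was inside Cyp3a16 (chr5:145453960-145454532), where the level was 2.85, 4.14 and 0.992 CPM in WT on chow, 2.69, 1.72 and 5.54 in WT on PTU/LID, 9.07, 10.2 and 10.6 in KO on chow and 2.05, 0.552 and 1.17 in KO on PTU/LID. KO on chow did not overlap the other groups, and the interaction was -3.57 ± 0.64 (edgeR, adjusted p = 0.00534). The region nearest the Cyp3a16 start (chr5:145468718-145469639) was more abundant, with 15.8, 7.73 and 4.79 CPM in WT on chow, 6.57, 6.46 and 5.34 in WT on PTU/LID, 33.9, 38.9 and 34.7 in KO on chow and 5.63, 3.04 and 2.77 in KO on PTU/LID, and gave -2.76 ± 0.45 (adjusted p = 0.00265). There the mark fell in KO (-3.31 ± 0.29 on the log2 scale), and the WT effect was -0.55 ± 0.32 (adjusted p = 0.375). Near Cyp3a41b, Cyp3a41a and Cyp3a44 the interactions were -2.64 ± 0.49, -2.24 ± 0.47 and -2.02 ± 0.46 (adjusted p = 0.00829, 0.0291 and 0.0458).

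The count of negative Cyp3a regions was 4 without Chow_WT_27ac_106, 6 without Ptulid_WT_27ac_155, 5 without Chow_NCoRKO_27ac_146, 5 without Ptulid_NCoRKO_27ac_232 and 6 without Ptulid_NCoRKO_27ac_239. It was 6 with the chrM share as a covariate. In the libraries of higher chrM share alone, the Cyp3a16 region of largest interaction gave -1.88. The part of the chrM share in these values was not tested further. The call of that Cyp3a16 region was lost without Ptulid_WT_27ac_280 (adjusted p = 0.0816). That of Cyp3a41b was lost without Chow_WT_27ac_106 or Ptulid_WT_27ac_155 (adjusted p from 0.0586 to 0.0648). That of Cyp3a41a was lost without Chow_WT_27ac_106, Ptulid_WT_27ac_135, Ptulid_WT_27ac_155, Chow_NCoRKO_27ac_146, Chow_NCoRKO_27ac_190 or Ptulid_NCoRKO_27ac_232 (adjusted p from 0.0576 to 0.127). That of Cyp3a44 was lost without any 1 library other than Chow_WT_27ac_96, Ptulid_WT_27ac_155 or Chow_NCoRKO_27ac_122 (adjusted p from 0.0594 to 0.178). With the chrM share as a covariate, Cyp3a41a (edgeR, adjusted p = 0.0597) and Cyp3a44 (adjusted p = 0.128) were lost too.

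Single negative regions lay at other liver genes. Near Akr1d1, the reductase that forms the saturated steroid ring of bile acids (chr6:37600299-37601112), the level was 11.4, 10.8 and 11.4 CPM in WT on chow, 10.2, 7.11 and 4.72 in WT on PTU/LID, 27.8, 27.9 and 30.4 in KO on chow and 5.63, 2.35 and 4.37 in KO on PTU/LID. KO on chow lay above the other 9 libraries, and the interaction of -2.21 ± 0.39 (edgeR, adjusted p = 0.00416) passed under every alternative tried. Inside Nfix, a transcription factor gene (chr8:84787881-84789882), the mark fell in WT (-1.45 ± 0.20) and further in KO (-2.85 ± 0.19; interaction -1.41 ± 0.27, adjusted p = 0.0102). Summed over its 27 regions, Nfix had a diet effect of 0.02 ± 0.12 in WT and -0.75 ± 0.12 in KO, so the WT fall was not seen over the whole gene. Inside Ginm1 (chr10:7775744-7776374) the interaction was -2.11 ± 0.48 (adjusted p = 0.043), a call lost without any 1 library other than Chow_WT_27ac_96, Ptulid_WT_27ac_280 or Chow_NCoRKO_27ac_146 (adjusted p from 0.0614 to 0.177).

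In 4 negative regions KO on PTU/LID was, by its low level, the group farthest from the others. The one with the largest interaction covered the start of Avpr1a, the vasopressin V1a receptor (chr10:122448450-122448964), whose covered bases are the capitals printed above. It measured 11.1, 8.56 and 9.75 CPM in WT on chow, 17.0, 14.4 and 8.62 in WT on PTU/LID, 9.26, 7.63 and 11.3 in KO on chow and 4.09, 2.21 and 2.62 in KO on PTU/LID, with KO on PTU/LID below the other 9 libraries. The mark fell in KO (-1.73 ± 0.31), the WT effect was 0.43 ± 0.27 (adjusted p = 0.409), and the interaction was -2.16 ± 0.41 (edgeR, adjusted p = 0.00898). At Perp, a p53-responsive gene of cell junctions (chr10:18845038-18845467), the interaction was -1.69 ± 0.36 (adjusted p = 0.0272). Near Xbp1, a transcription factor of the unfolded protein response (chr11:5498109-5499370), WT on PTU/LID was the highest group: the mark rose in WT (0.80 ± 0.19) and the KO effect was -0.42 ± 0.18 (interaction -1.22 ± 0.26, adjusted p = 0.031). The Avpr1a call was lost without Chow_NCoRKO_27ac_190, Ptulid_NCoRKO_27ac_232 or Ptulid_NCoRKO_27ac_239 (adjusted p from 0.0512 to 0.0578).

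The position of called regions relative to genes was compared with that of all regions. Start windows of any gene, non-coding genes included, overlapped 9 of 80 positive regions (11.2%) and 6 of 38 negative regions (15.8%), against 17.4% of the 51000 regions in the table that could be set against these windows. By the distance from the region's midpoint to the nearest protein-coding start that had a window, 2 of these 80 positive regions (2.5%) and 6 negative regions (15.8%) lay within 1 kb. Of the 50961 regions tested that could be compared, 21.7% did. Not every gene had a window, so these shares can miss regions at a start. For the region 6.3 kb from Fabp5, the nearest start with a window was that of 1700008P02Rik, 3400 kb away. Inside a gene and more than 2.5 kb from its ends lay 44.6% of positive and 28.9% of negative regions, against 43.6% of all. More than 50 kb from any protein-coding gene lay 15.7% and 5.26%, against 6.73%. The annotation used gives gene ends only, so exonic, intronic and untranslated positions are not distinguished. Called regions were also longer, with a median of 1076 bases for positive and 1015.5 for negative regions against 469, and more abundant, with medians of 21.0 and 13.7 CPM against 8.91. A count test reaches the threshold more easily at regions with more reads, so these medians are a description. Joined over gaps of up to 50 kb, the 121 regions formed 91 loci, and 14 loci with at least 2 called regions held 44 of them.

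The diet response as a whole was in large part shared between the genotypes. Of the 952 regions that rose on PTU/LID in WT, 852 had a positive diet effect in KO (89.5%, against 49.2% of all regions) and 254 rose there too. Their median effect was 0.43 in KO and 0.89 in WT, the genotype by which they were chosen. Of the 997 that fell in WT, 907 had a negative effect in KO (91%, against 50.8%), 445 fell there, and 4 rose. Starting from KO, 1357 of the 1724 regions that rose had a positive effect in WT (78.7%, against 47.2%), and 1415 of the 1545 that fell had a negative one (91.6%, against 52.8%). The diet effect passed in WT in the same direction at 254 of the 1724 and 445 of the 1545. Interaction calls held 69 of the regions that rose in KO and 38 of those that fell. Together 1759 of the 1949 regions called in WT kept their sign in KO. This count was 908 of 988 without Chow_WT_27ac_96, 835 of 906 without Chow_WT_27ac_99, 1084 of 1177 without Chow_WT_27ac_106, 3111 of 3612 without Ptulid_WT_27ac_135, 843 of 932 without Ptulid_WT_27ac_155 and 635 of 669 without Ptulid_WT_27ac_280.

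Summed over the regions of each gene, 46 of 11446 genes passed for the interaction (0.402%), 34 positive (0.297%) and 12 negative (0.105%). The diet changed 7.69% of genes in WT and 7.44% in KO, and 3.97% differed between genotypes on chow. Gene-level CPM are scaled to the sum over genes and differ from region CPM. The largest positive values belonged to Dync2li1 (2.22 ± 0.35), Castor2, a relative of the arginine sensor of the mTOR pathway (1.75 ± 0.39), Lyrm4 (1.67 ± 0.27), Ppp1r3g (1.66 ± 0.32) and Ackr3, a scavenging chemokine receptor (1.56 ± 0.29). The adjusted p of these by edgeR ranged from 0.012 to 0.0437. Ackr3 had 18.2, 24.1 and 18.1 CPM in WT on chow, 11.1, 11.8 and 12.9 in WT on PTU/LID, 19.6, 22.0 and 25.7 in KO on chow and 28.4, 39.97 and 49.5 in KO on PTU/LID, so that the mark fell in WT (-0.73 ± 0.22) and rose in KO (0.82 ± 0.19), and KO on PTU/LID lay above all other libraries. The largest negative values belonged to Cyp3a16 (-2.09 ± 0.38), Mup19 (-1.48 ± 0.32), Ginm1 (-1.45 ± 0.28), Ranbp3l, a Ran binding protein gene (-1.34 ± 0.27), and Perp (-1.33 ± 0.28), with adjusted p from 0.0207 to 0.038. Ranbp3l rose on PTU/LID in WT alone, with 13.5, 15.9 and 16.7 CPM in WT on chow, 31.6, 32.9 and 35.6 in WT on PTU/LID, 16.5, 14.3 and 20.1 in KO on chow and 17.4, 14.2 and 12.6 in KO on PTU/LID. WT on PTU/LID lay above the other 9 libraries.

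The number of genes called was 20 without Chow_WT_27ac_99, 30 without Chow_WT_27ac_106, 89 without Ptulid_WT_27ac_135, 19 without Ptulid_WT_27ac_280, 14 without Chow_NCoRKO_27ac_122, 20 without Chow_NCoRKO_27ac_190 and 24 without Ptulid_NCoRKO_27ac_239. Among the genes just named, the call was lost for Dync2li1 without Ptulid_WT_27ac_280 (adjusted p = 0.0616), for Castor2 without any 1 library other than Chow_WT_27ac_106, Ptulid_WT_27ac_135, Ptulid_WT_27ac_155 or Ptulid_NCoRKO_27ac_211 (adjusted p from 0.0561 to 0.146), for Lyrm4 without Ptulid_WT_27ac_280 (adjusted p = 0.0505), for Ppp1r3g without any 1 library other than Ptulid_WT_27ac_155, Chow_NCoRKO_27ac_122, Chow_NCoRKO_27ac_146 or Ptulid_NCoRKO_27ac_211 (adjusted p from 0.0528 to 0.143) and for Ackr3 without Chow_WT_27ac_99 or Chow_NCoRKO_27ac_122 (adjusted p from 0.0564 to 0.063). It was lost for Cyp3a16 without any 1 library other than Chow_WT_27ac_96, Chow_WT_27ac_106, Chow_NCoRKO_27ac_122, Ptulid_NCoRKO_27ac_211 or Ptulid_NCoRKO_27ac_232 (adjusted p from 0.0663 to 0.165), for Mup19 without any 1 library other than Chow_WT_27ac_96, Ptulid_WT_27ac_280, Chow_NCoRKO_27ac_146 or Ptulid_NCoRKO_27ac_211 (adjusted p from 0.0558 to 0.141), for Ginm1 without Chow_WT_27ac_106, Ptulid_WT_27ac_280, Chow_NCoRKO_27ac_122, Chow_NCoRKO_27ac_190, Ptulid_NCoRKO_27ac_232 or Ptulid_NCoRKO_27ac_239 (adjusted p from 0.0528 to 0.0884), for Ranbp3l without any 1 library other than Chow_WT_27ac_106, Ptulid_WT_27ac_135, Ptulid_WT_27ac_155, Chow_NCoRKO_27ac_146 or Ptulid_NCoRKO_27ac_211 (adjusted p from 0.0538 to 0.106) and for Perp without any 1 library other than Ptulid_WT_27ac_135, Chow_NCoRKO_27ac_122, Chow_NCoRKO_27ac_146 or Ptulid_NCoRKO_27ac_211 (adjusted p from 0.0599 to 0.159). With the chrM share as a covariate 91 genes were called, 50 positive and 41 negative, and Ppp1r3g was not (adjusted p = 0.0984). Cyp3a16 also missed the threshold with upper-quartile factors (adjusted p = 0.0866), cyclic loess (0.0633), regions within 10 kb (0.0526), regions at gene ends (0.0882) and both Ptulid_WT_27ac_135 and Ptulid_NCoRKO_27ac_211 left out (0.0635). With regions at gene ends alone, Dync2li1 (0.0653), Ppp1r3g (0.232) and Ginm1 (0.246) missed it too.

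Dio1, Thrb, Thra and Ncor1 did not pass for the interaction. Dio1, the type 1 deiodinase and a gene that the hormone induces, had 188, 204 and 181 CPM in WT on chow, 68.2, 44.4 and 38.7 in WT on PTU/LID, 290.5, 262 and 348 in KO on chow and 61.4, 41.9 and 43.5 in KO on PTU/LID. In each genotype the PTU/LID libraries lay far below the chow libraries. The mark fell in WT (-1.94 ± 0.18 on the log2 scale) and in KO (-2.64 ± 0.18), and the interaction of -0.70 ± 0.25 did not pass (edgeR, adjusted p = 0.32), though it did with the total count as a covariate (-0.76, adjusted p = 0.0462). The receptor genes Thrb and Thra gave 0.12 ± 0.14 (adjusted p = 0.82) and -0.06 ± 0.26 (adjusted p = 0.964), and Ncor1 -0.01 ± 0.22 (adjusted p = 0.99); the signs of Thra and Ncor1 turned under other settings. Of 20 genes known to be induced by thyroid hormone, 5 fell with the diet in WT and 5 in KO, and 0 passed for the interaction. Over all 11446 genes 400 fell in WT and 349 in KO. In the list 4 were positive and 1 negative at an unadjusted p under 0.05, and DESeq2 called 0. Over all genes 624 were positive and 559 negative unadjusted, and DESeq2 called 80 positive and 25 negative. The median interaction of the list was 0.09, against -0.01 for all genes, and 3 of its 173 regions, all at Pck1, were called positive. The list member of smallest p was Atp2a2, the calcium pump of the endoplasmic reticulum (0.56 ± 0.18, adjusted p = 0.25). Among 21 receptor and coregulator genes 0 passed, 0 had an unadjusted p under 0.05 and DESeq2 called 0, with a median of 0.12; the smallest p was that of Tbl1xr1, a subunit of NCoR1 complexes (0.18 ± 0.15, adjusted p = 0.707).

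Over 21 lists of liver genes only Cyp3a16 passed at gene level, a member of both the xenobiotic and the female-biased list; DESeq2 called 7 list genes. Over all 11446 genes, 624 were positive and 559 negative at an unadjusted p under 0.05, and DESeq2 called 80 positive and 25 negative. In lipogenesis 0 of 24 genes passed by edgeR, 5 were positive and 0 negative at an unadjusted p under 0.05, and DESeq2 called Scd1 and Elovl5 (median 0.06). In cholesterol metabolism 0 of 25 passed, with 4 positive and 1 negative unadjusted, 0 by DESeq2 and a median of 0.18. In fatty acid oxidation 0 of 31 passed, with 3 positive and 0 negative unadjusted and Acot1, an acyl-CoA thioesterase, called by DESeq2 (edgeR 1.07 ± 0.26, adjusted p = 0.0802). In glucose metabolism 0 of 22 passed, with 3 positive and 1 negative unadjusted and 0 by DESeq2, although 4 of 244 regions of its genes were called, all positive and at Pck1 and Tat. In the growth hormone axis 0 of 13 passed, 6 were positive and 0 negative unadjusted, DESeq2 called 0, and the median was 0.38; its member of smallest p was the signal transducer Stat5b (0.41 ± 0.14, adjusted p = 0.284). In bile acid metabolism 0 of 22 passed, with 3 positive and 1 negative unadjusted, 0 by DESeq2 and a median of -0.07, the smallest p being that of the transporter Abcc4 (0.73 ± 0.22, adjusted p = 0.199).

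Sex-biased genes gave values of both signs. Among 16 male-biased genes 0 passed by edgeR, 2 were positive and 1 negative unadjusted, and DESeq2 called Mup21 with a positive value (edgeR 0.77 ± 0.20, adjusted p = 0.105), opposite in sign to the called Mup regions. Among 20 female-biased genes the called one was Cyp3a16, 2 were positive and 3 negative unadjusted, and the list's median was 0.10. In the clock list 0 of 20 passed, with 2 positive and 1 negative unadjusted and 0 by DESeq2; Per3 gave -1.11 ± 0.41 (adjusted p = 0.374). Acute phase genes (0 of 20, 0 unadjusted, 0 by DESeq2) and housekeeping genes (0 of 14, 0 unadjusted, 0 by DESeq2) had medians of -0.08 and -0.16; their members of smallest p were Itih4 (-0.30 ± 0.16) and Sdha (-0.30 ± 0.20). Of 8 cell cycle genes 0 passed by edgeR, 3 were positive unadjusted, and DESeq2 called the growth arrest gene Gadd45g (edgeR 0.75 ± 0.20, adjusted p = 0.111). Many sex-biased genes lie in families with near-identical members, and sex was not used.

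**Figure D5:**
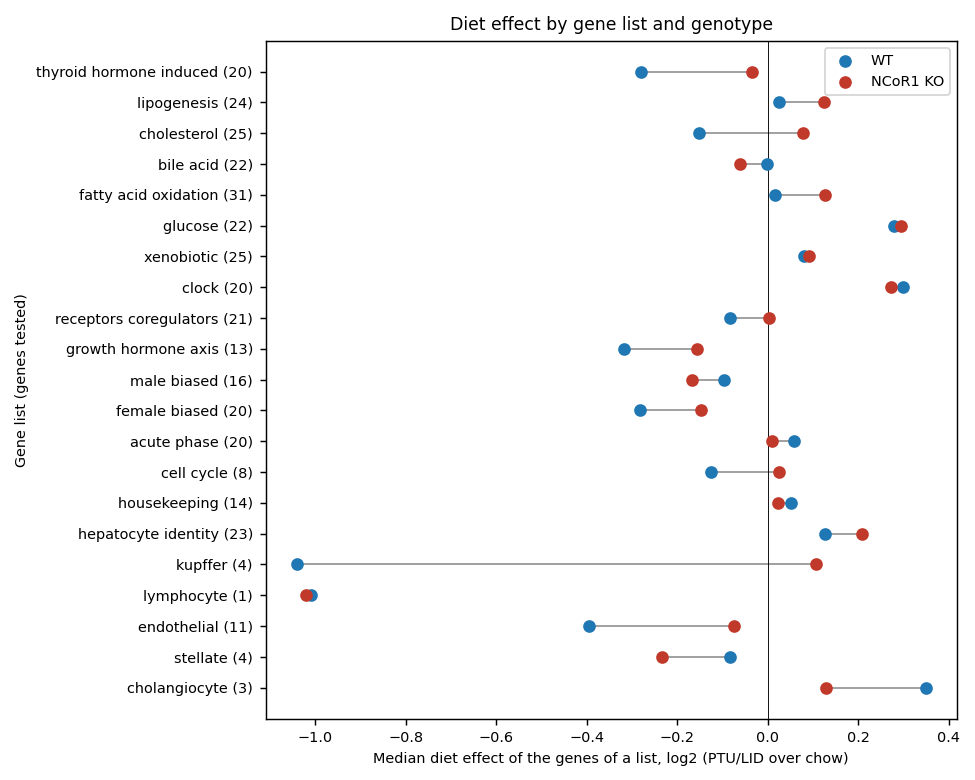
Median diet effect over the genes of each of 21 lists (horizontal axis, log2 of PTU/LID over chow) in WT (blue) and KO (red), with the number of genes tested in brackets; the line joins the genotypes and its length shows their difference. The longest line, for the Kupffer cell list, rests on 4 genes, and most lists differ by under 0.3.

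Marker genes of other liver cell types were examined in the same way. All 4 Kupffer cell and macrophage markers tested of 8 had a positive interaction (median 0.86), 0 passed, 2 had an unadjusted p under 0.05 and DESeq2 called 0. Their summed level was 51.3 to 70.5 CPM in WT on chow, 36.6 to 38.0 in WT on PTU/LID, 35.3 to 40.3 in KO on chow and 35.3 to 49.0 in KO on PTU/LID. Spi1, the transcription factor PU.1, fell in WT (-0.91 ± 0.19), and its interaction was 0.93 ± 0.26 (edgeR, adjusted p = 0.145). Endothelial markers (11 tested) summed to 1070 to 1120 CPM in WT on chow, 923 to 1050 in WT on PTU/LID, 841 to 886 in KO on chow and 832 to 873 in KO on PTU/LID; 0 passed, 1 was positive unadjusted (Ehd3, 0.42 ± 0.18, adjusted p = 0.411) and DESeq2 called 0. Of 3 cholangiocyte, 4 stellate cell and 1 lymphocyte marker genes 0 passed, 0 had an unadjusted p under 0.05 and DESeq2 called 0. Hepatocyte genes had a median interaction of 0.003, with 0 of 23 passing, 1 positive and 1 negative unadjusted and 0 by DESeq2. The members of smallest p were Tat in the hepatocyte list (0.89 ± 0.34), Sox9 among cholangiocyte (-0.50 ± 0.24), Col3a1 among stellate cell (0.34 ± 0.47) and Cd4 among lymphocyte markers (-0.01 ± 0.24, a sign that turned under other settings), all short of the threshold. The part of other cell types in the called regions was not tested.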

How the data were processed

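H3K27ac chromatin immunoprecipitation was sequenced from mouse liver. The authors deposited 1 table of raw read counts per region for 12 libraries; tools named in the submitters' processing notes are MACS2 (version 2.1.1), bedtools (version 2.26.0), Bowtie2 (version 2.2.1), Picard (version 2.8.1) and bcl2fastq (version 2.17.1.14), and their build is mm10. How regions were merged and counted is not given in the sources used here. Input libraries are not analysed here.

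Regions were kept by filterByExpr (minimum count 10), scaled by TMM and fitted with edgeR 4.0.16 (R 4.3.3; robust quasi-likelihood test, 1 mean per group, no covariate), with Benjamini-Hochberg adjustment over all regions. SE is the log2 value divided by the root of F. Totals ranged from 2965505 to 7416187 counts, and p-values cover the spread between 3 libraries a group. Regions inside or within 50 kb of a protein-coding gene (RefSeq GRCm38.p6, 21900 genes) were summed for the nearest gene; 11446 genes were tested. Alternatives used DESeq2 1.42.0, limma 3.58.1 (cyclic loess), other filters, covariates and gene assignments, and each library left out. The fitting steps were tested on simulated data.

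Named regions are the 12 largest called interactions in each direction, 1 per gene; named genes are the 5 largest in each direction, each list's member of smallest p, Ncor1, Dio1, Thrb and Thra. One region selected by this rule is not reported here. The members and lists were chosen with earlier results of these data known.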

Additional observations from a re-analysis of the deposited data

Results flagged for a closer look

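Each of the following results is a difference between the genotypes in the same contrast, the effect of PTU/LID against chow, that passed the test of the difference itself by edgeR with Benjamini-Hochberg adjustment. Values are the log2 diet effect in KO minus that in WT. They are the results named by size, so their size is no separate evidence.

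Among regions the value was 3.05 at Scd1, 2.58 at Dync2li1, 2.52 at Fabp5, 2.51 at Polr1a, 2.36 at Kcnk3 and 2.30 at Cmah. It was 2.11 at Zfp970, 2.07 at Ppp1r3g, 2.03 at Rprd1a, 1.98 at Lyrm4 and 1.92 at Smg1. In the negative direction it was -3.57 at Cyp3a16, -2.64 at Cyp3a41b, -2.45 at Mup10, -2.39 at Mup11, -2.27 at Mup9 and -2.24 at Cyp3a41a. It was -2.21 at Akr1d1, -2.16 at Avpr1a, -2.11 at Ginm1, -2.02 at Cyp3a44, -1.96 at Mup-ps12 and -1.96 at Mup8. Of the 24 regions selected by size, 1 of which is not reported here, 6 passed under every alternative tried and 7 with any 1 library left out, and 0 turned direction.

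Summed over the regions of a gene, the value was 2.22 for Dync2li1, 1.75 for Castor2, 1.67 for Lyrm4, 1.66 for Ppp1r3g and 1.56 for Ackr3. It was -2.09 for Cyp3a16, -1.48 for Mup19, -1.45 for Ginm1, -1.34 for Ranbp3l and -1.33 for Perp.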

How the results depend on the processing

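The 121 called regions, 46 called genes, 89 regions passing for diet in KO alone, 45 regions with KO on PTU/LID high, 1759 regions keeping the WT sign in KO and 1 called list gene changed in number as follows, in that order where a value moved; the cause was not tested. DESeq2 gave 189 regions (116 of them among the 121), 105 genes, 69 regions with KO on PTU/LID high and 7 list genes. Cyclic loess gave 261, 80, 177, 107 and, for list genes, 2. The chrM share as a covariate gave 248 regions, 91 genes and 7 list genes, with 45.6% of regions and 54.9% of genes positive instead of 68.6% and 73.9%. The total count as a covariate gave 454, 161, 303, 178, 2898 and 11. The libraries of higher chrM share alone gave 178 regions (39.9% positive, 33 of them among the 121), 26 with KO on PTU/LID high and 339 of the same sign; libraries of lower share include none of KO on chow. Leaving out both Ptulid_WT_27ac_135 and Ptulid_NCoRKO_27ac_211, chosen after seeing the data, gave 341, 194, 191, 130, 4259 and 13. Regions at gene ends alone gave 19 genes and 2 list genes, regions within 10 kb and upper-quartile factors 0 list genes, and a threshold of 0.01 gave 613 of 638 regions of the same sign. With 1 library left out, regions ranged from 33 to 208, genes from 14 to 89, KO alone from 23 to 108, KO on PTU/LID high from 11 to 65, same sign from 635 to 3111 and list genes from 0 to 6. Positive shares then moved by over 10 points to 57.6% of regions without Chow_WT_27ac_106, and of genes to 90.0% without Chow_WT_27ac_99 or Chow_WT_27ac_106, 91.7% without Ptulid_WT_27ac_155, 84.2% without Ptulid_WT_27ac_280, 85.7% without Chow_NCoRKO_27ac_122, 95.0% without Chow_NCoRKO_27ac_190 and 95.8% without Ptulid_NCoRKO_27ac_239. Genes near 0 turned sign: Cd4 (0.0094 by loess, 0.0017 without a filter, 0.29 without both libraries, -0.16 to 0.15 with 1 left out), Ncor1 (0.013 by loess, 0.0033 without a filter, 0.27 with the chrM covariate, 0.014 at gene ends, 0.035 without both, -0.11 to 0.15) and Thra (0.17 at gene ends, -0.17 to 0.19). No paired analysis was possible because the 4 groups share no replicate number.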
